A study of Sus scrofa domesticus with 36 samples.

Results

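ENSSSCG00000014916, ENSSSCG00000026182, ENSSSCG00000027958, ENSSSCG00000028736 and ENSSSCG00000029147 are 5 pig genes, of 25322 in the count table, that are known here only by an Ensembl gene ID. They were chosen by their counts in these same libraries, because the same pigs stood at a low level in backfat and in back muscle, and that shared low level is described below without a test. Of the 5 IDs, 0 had a symbol in the table of gene names used here and 0 were found in the Sscrofa11.1 RefSeq gene table, so no gene name, role, position or sequence is given for them. The tissue samples came from 18 young pigs of a Danbred 600 by Newsham cross, with 18 libraries of subcutaneous adipose tissue (backfat taken between rib 8 and the last rib) and 18 libraries of longissimus dorsi, a long back muscle. The growth protocol names NC32 for all pigs, whereas the breed label gives a different NC number for each library. All pigs were killed 3 weeks after weaning, although another label field puts their age at 16 to 17 days. The animals were chosen as 9 slow growers, in the lowest 10 percentiles of growth rate, and 9 pigs of percentiles 60 to 70, but the class of each pig was not used here. Pigs are named by the number in their sample title.

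An Ensembl gene ID marks a stretch of the genome that an annotation takes for a gene. In the table of gene names used here 11804 of the 25322 IDs had a symbol, so an ID without one need not lack a known orthologue. RNA that is plentiful in some animals and near absent in others of one population is known in many species, often in more than one tissue of the same individual. Backfat holds adipocytes, vessels and immune cells, and longissimus muscle holds mostly fast contracting fibres. RNA of adipocyte, endothelial and macrophage marker genes was measured in both tissues here. The source of the low levels was not tested here.

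Levels are given as CPM, the count of a gene scaled to a library of fixed size with trimmed-mean factors applied, and log2 levels carry a prior count of 0.5. Libraries held 2990913 to 5373406 gene counts in adipose tissue and 4716541 to 6216459 in muscle. A total of 3 counts, taken as the limit below which a gene is not told from background, equals 0.325 to 0.640 CPM in an adipose library and 0.669 to 1.15 CPM in a muscle library, and this limit covers counting error only. The labels fit their markers: the adipocyte genes PLIN1, PLIN4 and CIDEC summed to 595 to 1310.0 CPM in adipose tissue against 122 to 498 CPM in muscle, and the muscle actin ACTA1 stood at 52.2 to 17450.0 CPM in adipose tissue against 22310.0 to 313500.0 CPM in muscle. Of 7 adipocyte and 7 muscle markers listed, 3 and 1 were matched to an ID. Muscle of pigs Sample_735 and Sample_572 held the least ACTA1, at 22310.0 and 24950.0 CPM, and the adipose library of pig Sample_656 had the fewest gene counts and 53.8% of its counts outside annotated genes. Library totals of the low pigs lay within or near those of the others for each gene in each tissue, except as stated below. The sex of the pigs was not analysed here, because 0 of 11 sex-linked genes listed could be matched to an ID through the table of gene names. That table gave a symbol for 11804 of the 25322 IDs, so rows of these genes may be present without a symbol.

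For each gene and tissue a pig was placed on the low side when its log2 level lay under the midpoint between the lowest and the highest library. By this definition the low pigs of ENSSSCG00000014916, ENSSSCG00000027958 and ENSSSCG00000029147 were the same animals in adipose tissue and in muscle, in 18 of 18 pigs. For ENSSSCG00000026182 and ENSSSCG00000028736 the sides matched in 17 of 18 pigs, and the exception was pig Sample_731, high in adipose tissue and low in muscle. Among the 1969 genes whose levels ranged over at least 2 log2 units in each tissue, with at least 1 CPM in at least 3 libraries of each, 1.17% (23 genes) had the same sides in both tissues for every pig and 3.15% (62 genes) for at least 17. The members were picked for this pattern, so nothing is read from their place in these counts. Of the 23 genes, 6 carry a symbol: SNCG, MMRN2, SMDT1, NDUFA6, TAP2 and SGCE.

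**Figure D1:**
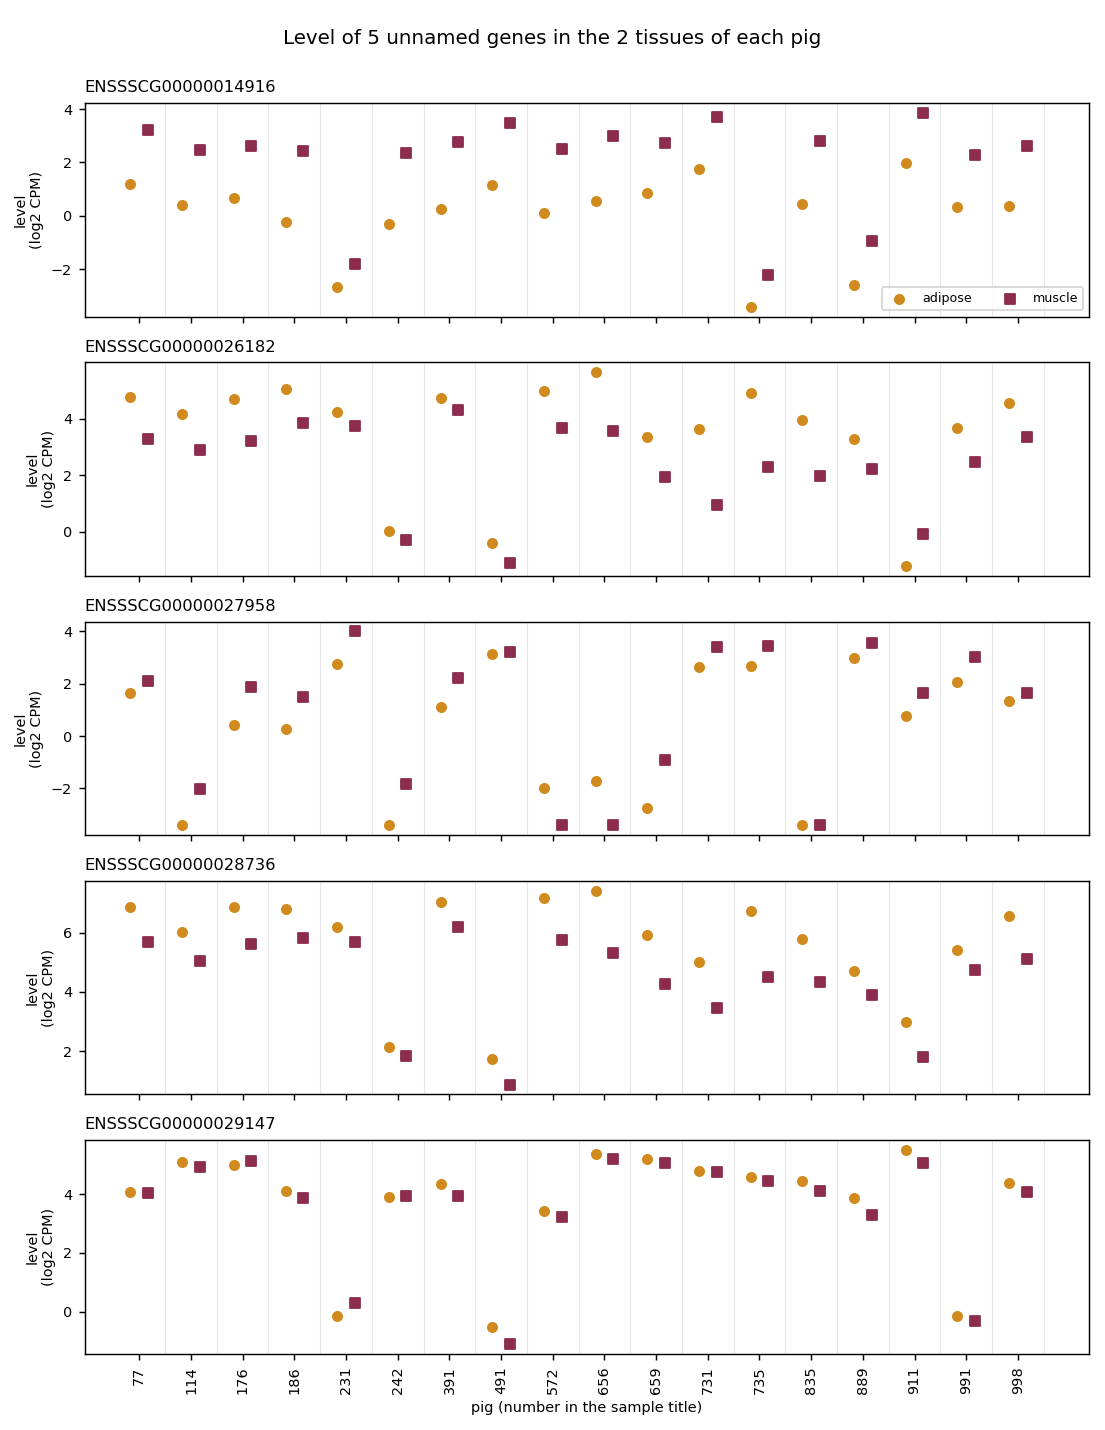
Level (log2 CPM, prior count 0.5) of each gene by pig, with the adipose library (circle) left of the muscle library (square) of the same animal. In adipose tissue each panel shows 3 pigs, or 6 for ENSSSCG00000027958, set apart below the rest; in muscle the same holds except that pig Sample_731 lies between for ENSSSCG00000026182 and ENSSSCG00000028736.

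ENSSSCG00000014916 was low in pigs Sample_231, Sample_735 and Sample_889. In adipose tissue its level ran from 0.0 to 3.89 CPM with a median of 1.22 CPM, and in muscle from 0.123 to 14.4 CPM with a median of 6.06 CPM. The deposited counts of the low pigs were 0.5 (pig Sample_231), 0.0 (pig Sample_735) and 0.5 (pig Sample_889) in adipose tissue, and 0.5, 0.5 and 1.5 in muscle. All these values lie under the limit of 3 counts, so the gene was not detectable in those pigs at this depth. The lowest of the other 15 pigs had 5.0 counts (0.721 CPM) in adipose tissue and 13.5 counts in muscle (lowest level 4.77 CPM), and no library fell between. Pigs Sample_911 and Sample_731 were highest in both tissues, at 3.89 and 3.29 CPM in adipose tissue and 14.4 and 12.8 CPM in muscle.

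ENSSSCG00000029147 was low in pigs Sample_231, Sample_491 and Sample_991, with the widest empty interval of the 5 genes in adipose tissue. Its level ran from 0.605 to 45.4 CPM in adipose tissue, with a median of 20.6 CPM, and from 0.372 to 36.4 CPM in muscle, with a median of 16.6 CPM. The low pigs had 0.803 CPM (pig Sample_231), 0.605 CPM (pig Sample_491) and 0.800 CPM (pig Sample_991) in adipose tissue, from 5.0 to 6.5 counts. In muscle they had 1.15, 0.372 and 0.706 CPM, from 1.5 to 3.0 counts. The next pig up was Sample_572 in both tissues, at 10.7 CPM in adipose tissue and 9.25 CPM in muscle. Between pig Sample_572 and the low pigs the level jumped by 3.59 log2 units in adipose tissue and 2.91 in muscle, while no other step between neighbouring pigs passed 0.451 and 0.781. The pigs at the top were also shared in part: pigs Sample_911, Sample_656 and Sample_659 had 45.4, 41.4 and 36.8 CPM in adipose tissue and 33.5, 36.4 and 33.1 CPM in muscle. Library totals of the low pigs were 4875484 to 5254538 in adipose tissue and 5048323 to 5456945 in muscle, inside the range of the other pigs.

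ENSSSCG00000026182 and ENSSSCG00000028736 were low in the same pigs, Sample_242, Sample_491 and Sample_911, and lay on the same side in 36 of 36 libraries. ENSSSCG00000026182 ran from 0.338 to 49.8 CPM in adipose tissue, with a median of 18.2 CPM, and from 0.372 to 19.5 CPM in muscle, with a median of 6.39 CPM. Its low pigs had 0.937 CPM (pig Sample_242), 0.666 CPM (pig Sample_491) and 0.338 CPM (pig Sample_911) in adipose tissue, and 0.736, 0.372 and 0.849 CPM in muscle. The lowest of the other 15 pigs in adipose tissue stood at 9.55 CPM, so the sides were far apart there. In muscle they were not: pig Sample_731 lay between, at 1.83 CPM (5.5 counts), and the next pig stood at 3.73 CPM, so the widest step in muscle was 1.03 log2 units and the second widest 0.992.

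ENSSSCG00000028736 had more counts than ENSSSCG00000026182 in every library and stayed detectable in its low pigs. It ran from 3.27 to 170.5 CPM in adipose tissue, with a median of 68.9 CPM, and from 1.74 to 72.8 CPM in muscle, with a median of 29.7 CPM. The low pigs had 30 (pig Sample_242), 27.0 (pig Sample_491) and 46.0 (pig Sample_911) counts in adipose tissue, and 9.5, 7.0 and 10.0 counts in muscle. As levels these were 4.33, 3.27 and 7.78 CPM in adipose tissue and 3.50, 1.74 and 3.40 CPM in muscle. The gene was thus detected in these animals, at a lower level than in any other pig of the same tissue. Pig Sample_731 again lay between in muscle, at 10.8 CPM, while in adipose tissue it was the second lowest of the other pigs at 32.2 CPM, after pig Sample_889 at 26.2 CPM.

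The pair also moved together above the low pigs. Counts of ENSSSCG00000028736 per count of ENSSSCG00000026182 had a median of 3.99 in adipose tissue and 4.57 in muscle. Over the libraries on the high side the ratio ran from 2.60 to 6.01 in adipose tissue (15 pigs) and from 3.22 to 5.32 in muscle (14 pigs). The one ratio far outside was 23.0 in the adipose library of pig Sample_911, which rests on 2.0 counts of ENSSSCG00000026182. Across all 36 libraries, low pigs included, the Pearson likeness of the log2 levels was 0.968, with each tissue centred on its mean. It is given as a description, since both genes share libraries and depth, and it does not measure agreement above the low pigs alone. Pig Sample_656 was the highest for both genes in adipose tissue, and pig Sample_391 in muscle.

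PGGHG, which encodes a glucosidase that releases glucose from hydroxylysine-linked sugars of collagen, was the gene with a symbol most like this pair. It lay on the same side as ENSSSCG00000026182 in 36 of 36 libraries, with pig Sample_731 low in muscle here too, and the likeness was 0.910 with that gene and 0.883 with ENSSSCG00000028736. PGGHG had 0.144 CPM (pig Sample_242), 0.303 CPM (pig Sample_491) and 0.254 CPM (pig Sample_911) in adipose tissue, from 1.0 to 2.5 counts, against 5.63 CPM in pig Sample_731, the lowest of the others. In muscle it was scarce in every pig, at a median of 1.48 CPM and a maximum of 3.81 CPM, so its sides there rest on few counts. In the RefSeq order of genes on Sscrofa11.1, 4 genes within 10 places of PGGHG had an ID in the table and a mean of at least 1 CPM (BET1L, RIC8A, SIRT3 and PSMD13). They lay on the same side as ENSSSCG00000026182 in 13 to 17 of 36 libraries. All 4 stood 4 to 7 places before PGGHG, with none directly beside it. They were chosen after the values were seen and without the limit on range, so little is read from their sides.

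**Figure D2:**
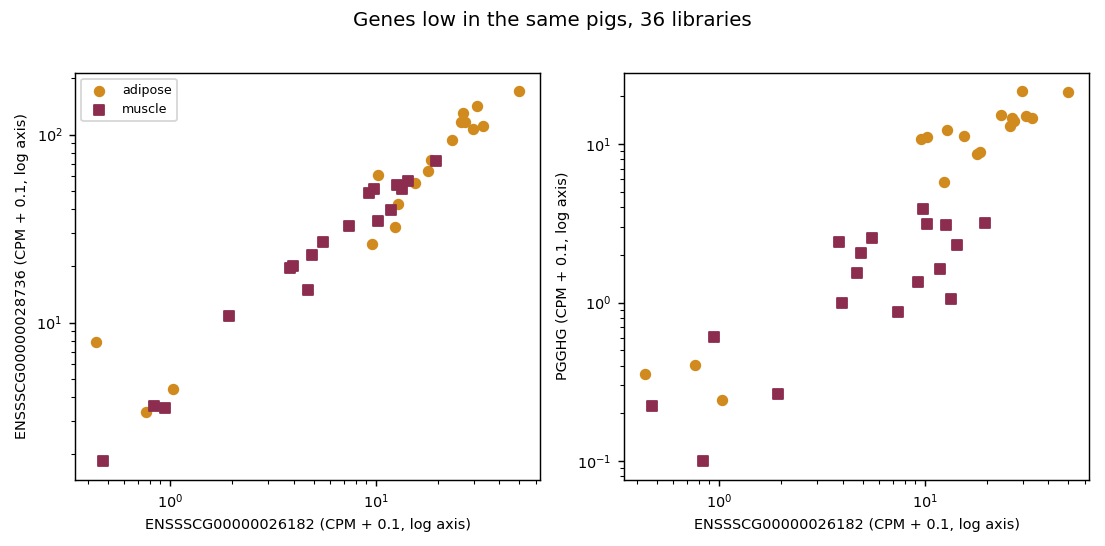
ENSSSCG00000026182 (horizontal, CPM + 0.1, log axis) against ENSSSCG00000028736 (left) and PGGHG (right, both CPM + 0.1, log axis) in 36 libraries, adipose as circles and muscle as squares. Adipose and muscle libraries follow one line on the left, whereas on the right the muscle libraries lie lower, at a median of 1.48 CPM of PGGHG.

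ENSSSCG00000027958 was low in 6 pigs in both tissues, more than the other genes. Pigs Sample_114, Sample_242, Sample_572, Sample_656, Sample_659 and Sample_835 had 0.0 to 1.5 counts in adipose tissue (at most 0.213 CPM) and 0.0 to 1.5 counts in muscle (at most 0.430 CPM), under the limit of 3 counts in all 12 libraries. Pig Sample_835 had 0.0 counts in both tissues. Pigs Sample_77, Sample_176, Sample_186, Sample_391, Sample_911 and Sample_998 stood at 1.11 to 3.02 CPM in adipose tissue and 2.70 to 4.52 CPM in muscle. Pigs Sample_231, Sample_491, Sample_731, Sample_735, Sample_889 and Sample_991 stood at 4.06 to 8.59 CPM in adipose tissue and 7.94 to 15.9 CPM in muscle. The lowest 6, the middle 6 and the highest 6 pigs were thus the same animals in both tissues. The split into 3 was made after the values were seen. In muscle the step from the middle to the highest set was 0.802 log2 units, wider than any step inside either set (at most 0.446), after a step of 2.42 above the low pigs. In adipose tissue the same step was 0.415, narrower than a step of 0.585 inside the highest set, so the upper 12 pigs did not separate there. The low pigs include both the shallowest adipose library (pig Sample_656, 2990913 counts) and the deepest (pig Sample_572, 5373406 counts). The share of counts outside annotated genes was highest in low pigs in both tissues. In adipose tissue it was 53.8% in pig Sample_656 and 38.56% in pig Sample_835, against at most 37.71% in the other 12 pigs. In muscle it was 34.13% in pig Sample_572 and 23.93% in pig Sample_659, against at most 21.97%. The remaining low pigs lay under these limits in each tissue. The part of this share in the low levels was not tested.

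**Figure D3:**
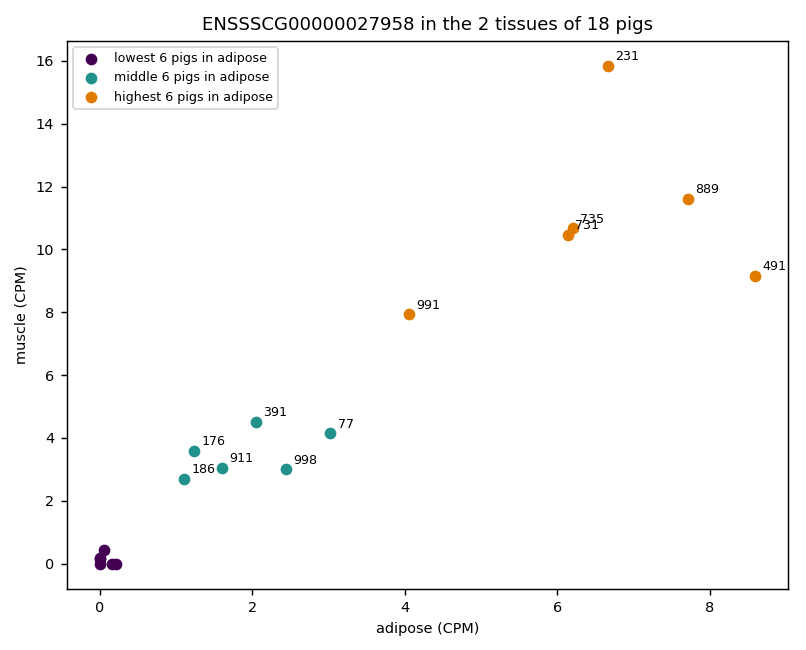
ENSSSCG00000027958 in adipose tissue (horizontal, CPM) and muscle (vertical, CPM), 1 point per pig, coloured by its place among the 18 adipose libraries. The 6 low pigs sit at the origin, the middle set reaches 4.52 CPM in muscle and the highest set begins at 7.94 CPM.

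The gene with a symbol most like ENSSSCG00000027958 was PPP1R11, which encodes an inhibitory subunit of protein phosphatase 1. It was on the same side in 29 of 36 libraries, with a likeness of 0.815, and it was scarce, at 0.0 to 2.28 CPM in adipose tissue and 0.0 to 3.12 CPM in muscle. PPP1R11 had at most 3.0 counts in every library of the 6 low pigs, and also in both libraries of pigs Sample_176, Sample_186 and Sample_991, where ENSSSCG00000027958 was detected. In the same RefSeq order, and chosen in the same way, 4 genes near PPP1R11 (UBD, GABBR1, RNF39 and TRIM26) lay on the same side as ENSSSCG00000027958 in 13 to 24 of 36 libraries.

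Apart from the one matching pair, the sets of low pigs differed between the genes, though some shared a pig. ENSSSCG00000014916 shared 1 low pig with ENSSSCG00000029147 (pig Sample_231) and 0 with the other 3 genes. ENSSSCG00000029147 shared 1 low pig (pig Sample_491) with ENSSSCG00000026182 and ENSSSCG00000028736, and 0 with ENSSSCG00000027958. ENSSSCG00000027958 shared 1 low pig (pig Sample_242) with each of the matching pair. Pairs other than ENSSSCG00000026182 and ENSSSCG00000028736 lay on the same side in 18 to 28 of 36 libraries. Genes that are each low in few pigs share few of them in any case. The overlap between pairs of all genes was not computed, so nothing is read from these counts. Pigs Sample_242 and Sample_491 were each low for 3 of the 5 genes in both tissues, pigs Sample_231 and Sample_911 for 2, 8 pigs for 1, and 6 pigs for 0. Pig Sample_491, low for 3 genes, was the highest of all pigs for ENSSSCG00000027958 in adipose tissue, at 8.59 CPM.

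**Figure D4:**
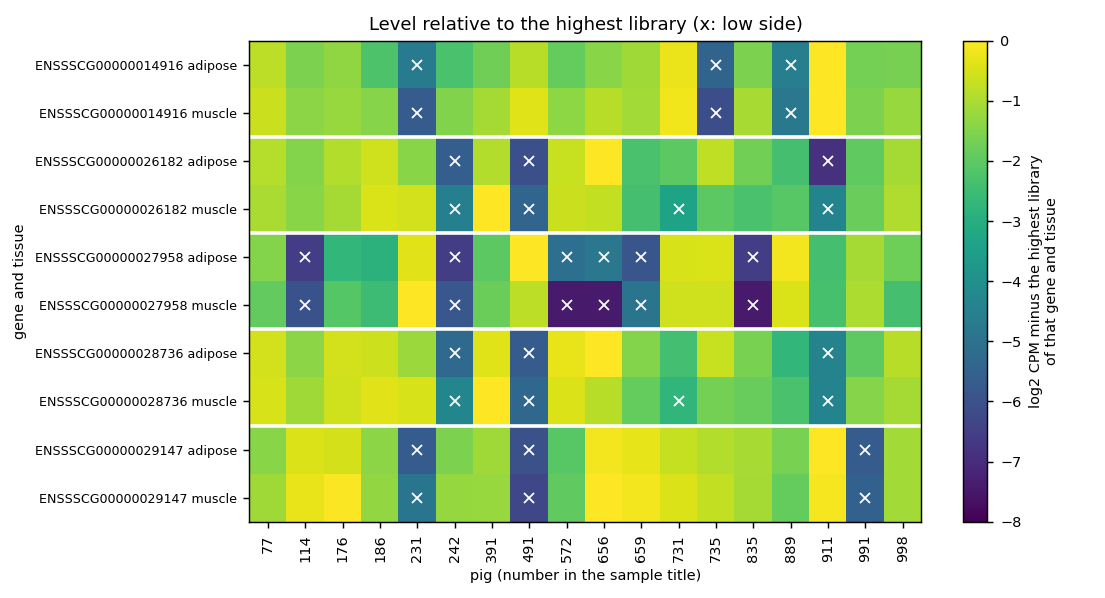
Log2 CPM of each gene and tissue (rows, adipose above muscle) in each pig (columns), minus the highest library of that row; crosses mark the low side. The crosses of adipose and muscle match in every pig except pig Sample_731, and the rows of ENSSSCG00000026182 and ENSSSCG00000028736 carry the same crosses.

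The named genes SNCG, MMRN2 and SMDT1 also had the same low pigs in both tissues, 3, 8 and 9 of them. MMRN2, an extracellular matrix protein of the endothelium, was low in all 3 pigs in which ENSSSCG00000029147 was low, with a likeness of 0.623 over the 36 libraries, while SNCG, a synuclein expressed in fat, shared 0 low pigs with it. By the count of libraries on the same side, the genes most like ENSSSCG00000029147 were ENSSSCG00000023108 (33 libraries), ENSSSCG00000021455 (32) and SGCE (32), the sarcoglycan epsilon gene. ENSSSCG00000021455 and SGCE were low only in pig Sample_231, with a likeness of 0.467 and 0.425. Genes that are each low in few pigs share a side in most libraries anyway, so such counts alone do not show that the same pigs were low. By likeness the closest gene to ENSSSCG00000029147 was ENSSSCG00000027916, at 0.844, a measure added after the values were seen. ENSSSCG00000027916 was low in pigs Sample_231, Sample_491 and Sample_991 in adipose tissue, at 0.803, 0.545 and 0.677 CPM against a median of 3.47 CPM, and had a muscle median of 1.11 CPM. The closest genes to ENSSSCG00000014916 were ENSSSCG00000025712 (33 libraries), ENSSSCG00000021455 (32) and ENSSSCG00000001429 (32), and none of them had the same 3 low pigs. ENSSSCG00000014380 (30 libraries) was next for the matching pair, and ENSSSCG00000002825 and ENSSSCG00000002826 (30 each) came before PPP1R11 for ENSSSCG00000027958. The genes on the same side in the fewest libraries, 7 or 8, were MLXIPL for ENSSSCG00000014916, KIF23 for the matching pair, APOD for ENSSSCG00000027958 and RAC2 for ENSSSCG00000029147. Their likeness was -0.353 for MLXIPL, -0.381 and -0.416 for KIF23, -0.485 for APOD and -0.530 for RAC2. A gene with most pigs on its low side scores few matches with a gene that is high in most pigs. MLXIPL, for instance, was low in muscle in every pig except Sample_889, so these counts alone do not show opposite levels.

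The difference between tissues is a measure that the choice of the genes did not use. It is given as adipose minus muscle on the log2 scale with its standard error (SE), from edgeR's quasi-likelihood test over 18 libraries of each tissue, with Benjamini-Hochberg adjustment over 12542 genes. All 5 genes passed the filter on low counts. Of all genes tested, 85.9% were called at an adjusted p under 0.05, 46.7% as higher in adipose tissue and 39.2% as higher in muscle, and of the 5 genes 3 were called, 2 as higher in adipose tissue and 1 as higher in muscle. This fit did not use the pairing of libraries by pig, so its SE includes the spread between pigs by which the genes were chosen. With the pig number as a block all 5 genes were called, beside 5944 genes higher in adipose tissue and 4944 higher in muscle. The median of all genes tested was 0.14.

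ENSSSCG00000014916 was lower in adipose tissue. It averaged 1.37 ± 1.02 CPM in adipose tissue and 6.35 ± 3.90 CPM in muscle (SD, n = 18 each), a log2 difference of -2.20 (SE 0.383, edgeR adjusted p = 2.03e-06). Adipose tissue was lower in 18 of 18 pigs, but the 3 low pigs had at most 1.5 counts in either tissue, so their direction is not told from background. In the 15 pigs with over 3 counts in both tissues the difference ran from -2.64 to -1.87. With library totals alone it was -0.83 (edgeR adjusted p = 0.0370). Muscle RNA in the adipose libraries did not follow the gene in every pig: the highest adipose levels of the gene, in pigs Sample_911 and Sample_731, which were also highest in muscle, stood beside 3776 and 17450.0 CPM of ACTA1, against an adipose median of 641 CPM. The next highest, in pigs Sample_77 and Sample_491 (2.18 and 2.12 CPM), stood beside 117 and 131 CPM of ACTA1, and pig Sample_391, with 8120 CPM of ACTA1, had 1.11 CPM of the gene. The part of muscle RNA in the result was not tested.

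ENSSSCG00000026182 and ENSSSCG00000028736 were higher in adipose tissue. ENSSSCG00000026182 averaged 19.2 ± 13.0 CPM in adipose tissue and 7.45 ± 5.45 CPM in muscle (SD, n = 18 each), a log2 difference of 1.36 (SE 0.413, edgeR adjusted p = 0.00291). It was higher in adipose tissue in 17 of 18 pigs, with pig Sample_911, at 2.0 and 2.5 counts, as the exception. In the 15 pigs with over 3 counts in both tissues the difference ran from 0.435 to 2.70. ENSSSCG00000028736 averaged 75.5 ± 50.6 CPM in adipose tissue and 31.4 ± 21.1 CPM in muscle (SD, n = 18 each), a log2 difference of 1.27 (SE 0.412, edgeR adjusted p = 0.00501). It was higher in adipose tissue in 18 of 18 pigs, by 0.299 in pig Sample_242 up to 2.22 in pig Sample_735. In these bulk samples more cells that express a gene and more RNA per cell cannot be told apart.

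ENSSSCG00000027958 and ENSSSCG00000029147 did not pass the test of tissue alone. ENSSSCG00000027958 averaged 2.85 ± 2.96 CPM in adipose tissue and 4.86 ± 4.90 CPM in muscle (SD, n = 18 each), a log2 difference of -0.74 (SE 0.555, edgeR adjusted p = 0.208). Blocked by pig, the difference was -0.76 (SE 0.156; edgeR, adjusted p = 0.000122), and all 12 pigs with over 3 counts in both tissues were lower in adipose tissue, by -1.47 to -0.093. With library totals alone the sign turned, to 0.60. ENSSSCG00000029147 averaged 21.1 ± 13.4 CPM in adipose tissue and 18.5 ± 11.9 CPM in muscle (SD, n = 18 each), a log2 difference of 0.18 (SE 0.409, edgeR adjusted p = 0.674), close to the median of all genes. Blocked by pig, it was 0.19 (SE 0.0652, edgeR adjusted p = 0.00817), with 15 of 18 pigs higher in adipose tissue, and with library totals alone it was 1.57 (edgeR adjusted p = 0.000923). In the 15 pigs with over 3 counts in both tissues the difference of ENSSSCG00000029147 ran from -0.155 to 0.587.

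**Figure D5:**
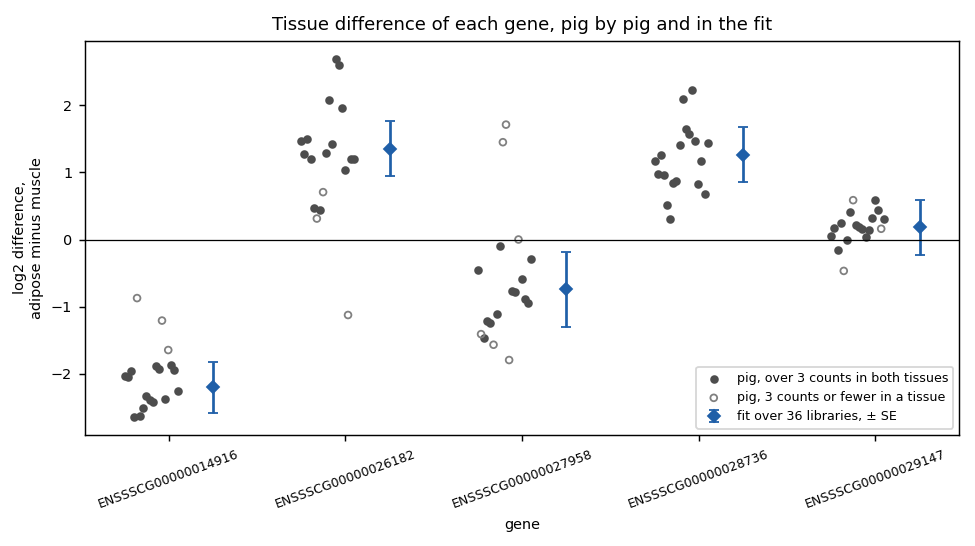
Log2 difference, adipose minus muscle, of each gene in each pig (filled points, over 3 counts in both tissues; open points, fewer) and from the fit over 36 libraries (diamond, ± SE). The points of ENSSSCG00000014916, open points included, lie below 0 and those of ENSSSCG00000028736 above 0 in 18 of 18 pigs, and the fitted values are -2.20 and 1.27.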

How the data were processed

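RNA of both tissues was sequenced from 100 nt ends read in pairs on a HiSeq 2000 after TruSeq library preparation, per the labels' protocols, which do not mention strand, so reads of genes that overlap or lie antisense could not be separated. A single table was deposited by the authors, holding unnormalised expected counts in steps of 0.5 (35.1% of values not whole, 50.6% for the 5 genes). Alignment and counting tools named per the submitters' processing notes are GSNAP and HTSeq; their versions and the build and annotation behind the IDs are not stated in the sources used here. Values were rounded to whole numbers for tests, and 5 lines that name no gene were left out. Columns left unused numbered 0.

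Tissue and pig came from the sample titles. Tests used edgeR 4.0.16 in R 4.3.3 (robust quasi-likelihood fit, tissue alone, trimmed-mean factors, averaging 1.62 in adipose tissue and 0.628 in muscle, default filter), with DESeq2 1.42.0 as an alternative, and the fit was tested on simulated data. Levels were computed from the unrounded values in Python 3.11.15. Libraries with 1 number come from 1 animal, so numbers pair the samples; deviations from tissue means correlated at 0.239 on average within pigs (0.0964 to 0.363) and at -0.0140 between pigs. Named genes are the 5 genes, the 3 most alike and 1 most opposite gene of each by libraries on the same side of the midpoint (ties by likeness), SNCG, MMRN2, SMDT1 and listed markers. The blood, macrophage, lymphocyte, endothelium and keratinocyte marker lists had summed adipose medians of 27.8, 448.5, 58.7, 358 and 44.3 CPM, and muscle medians of 39.3, 90.2, 15.2, 229 and 113.5 CPM. The genes and lists were chosen with earlier results of these data known.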

Additional observations from a re-analysis of the deposited data

How the results depend on the processing

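The low side was also set by the widest step between neighbouring pigs, with a prior count of 2, and with library totals alone. In each case the pigs low in both tissues were the same animals for each gene. By the widest step, 3 pigs were low in muscle for ENSSSCG00000026182 and ENSSSCG00000028736, against 4 by the midpoint. Pig Sample_731 was then on the high side in muscle, so its mismatch between tissues depends on the midpoint. With a fixed limit of 1 CPM, 0 pigs were low in both tissues for ENSSSCG00000028736 and 2 for ENSSSCG00000029147. The other 3 genes kept the same pigs low in both tissues. For ENSSSCG00000014916 that limit also put pigs Sample_186, Sample_242 and Sample_572 low in adipose tissue, at 0.76, 0.72 and 0.97 CPM, but not in muscle. Its tissues then no longer matched in every pig. With the pig number as a block, which changed no other call among the 5 genes, ENSSSCG00000027958 passed at -0.76 and ENSSSCG00000029147 at 0.19. With library totals alone the median gene moved by 1.36 toward adipose tissue, ENSSSCG00000027958 stood at 0.60 and did not pass, ENSSSCG00000029147 passed at 1.57, and 10134 genes were called higher in adipose tissue and 1530 higher in muscle, against 5852 and 4919 with trimmed-mean factors. Without a filter 9077 genes were called higher in adipose tissue. Median-of-ratios factors, DESeq2, the filter on mean level and doubled values changed no call among the 5 genes. Leaving out each pig in turn changed none either, with ranges of -2.25 to -2.17 for ENSSSCG00000014916, 1.26 to 1.46 for ENSSSCG00000026182, -0.84 to -0.67 for ENSSSCG00000027958, 1.18 to 1.32 for ENSSSCG00000028736 and 0.15 to 0.22 for ENSSSCG00000029147. Counts of 3 or fewer in low pigs limit what can be said of their level.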
